A study of Homo sapiens with 10 samples.

Results

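Potassium channel genes were taken as every row of the count table whose symbol is KCN, then letters, then a number, which gave 95 of 62700 genes. By their symbols they comprise 30 voltage-gated pore-forming subunits, 10 modifier subunits, 8 channels gated by calcium, sodium or pH, 16 inward rectifiers, 15 two-pore-domain channels and 16 accessory subunits. The rule reads names alone, but the family as a whole was selected on the knockout and parental expression values of these same libraries. Levels, fold changes and calls between the genotypes are therefore given as a description of the members and support nothing further.

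Poly(A)-enriched RNA was sequenced from RPE p53-/- cells, a retinal pigment epithelial line that lacks the tumour suppressor p53. One group holds 5 libraries of the parental control and the other 5 libraries of CCAR1 knockout cells, and both groups carry the p53 deletion and were grown in DMEM/F12 with fetal bovine serum. CCAR1 is a nuclear coactivator and RNA-processing protein, and the series asked which transcripts change genome-wide when it is removed. Whether each replicate was its own culture, and whether the knockout cells came from 1 clone or a pool, is not stated in the labels. The spread between libraries may therefore be technical, and the contrast is one between these particular populations.

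Potassium channels let K+ leave or enter along its gradient and set the resting membrane potential of most cells. In excitable cells they end the action potential. In epithelia, the retinal pigment epithelium included, they support fluid and ion transport, volume control and the handling of K+ released by photoreceptors. Pore-forming subunits assemble as tetramers, or as dimers in the two-pore-domain class, and accessory subunits change their gating, assembly or trafficking.

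Estimated counts summed to 52.6 to 65.2 M (1e6 counts) in replicates 1 to 3 of both genotypes (6 shallow libraries) and to 320.6 to 385.4 M in replicates 4 and 5 (4 deep libraries). Levels are counts per 1e6 of the scaled library (CPM), and 1 count was worth 0.0157 to 0.0192 CPM in shallow and 0.00264 to 0.00314 CPM in deep libraries. CCAR1 RNA ran from 125.4 to 173.4 CPM in parental and from 88.5 to 125.7 CPM in knockout libraries. Those ranges met, and they separated within each depth. Of the 10 markers of retinal pigment epithelium, the transcription factors MITF and OTX2 stood at 39.1 and 10.9 CPM in parental and the channel gene BEST1 at 1.43 CPM. LRAT, PMEL and TTR averaged 0.325 to 0.432 CPM, and the other 4 averaged 0.0217 to 0.173 CPM, among them the visual-cycle enzyme RPE65 at 0.0561 CPM. Of 6 such markers tested, 3 rose in knockout (BEST1, LRAT and OTX2) and 0 fell. Among the 4 not tested, TYRP1 averaged 0.173 CPM in parental and 0.0443 CPM in knockout, with the knockout range wholly below. RPE65, RLBP1 and TYR overlapped between the genotypes. The part of these markers in the channel results was not tested. Of the 4 epithelial markers, keratins KRT8 and KRT18 averaged 175.0 and 216.5 CPM in parental. EPCAM and CDH1 averaged only 0.445 and 0.314 CPM in parental, and 0.0365 and 0.0862 CPM over the deep libraries of both genotypes.

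Of the 95 channel genes, 43 passed the filter on low counts. A gene is said to have risen or fallen where edgeR's quasi-likelihood test gave a Benjamini-Hochberg adjusted p under 0.05 over all 18979 genes tested. By that call 9 members rose, 7 fell and 27 did not pass, which is 37.2% of those tested against 36.6% of all genes (19.7% higher, 16.9% lower). At least 2-fold changes were called for 5 higher and 3 lower members, against 7.47% and 3.09% of all genes. The knockout range lay wholly above the parental range for 7 members and wholly below it for 6, where 16% and 14.6% of all genes did so. The median log2 fold change was 0.05 over the 43 members and 0.02 over all genes. The filter passes a gene that is high in only one genotype, so these counts describe the members that passed and not the whole family. In bulk RNA, fewer cells that express a gene and less RNA per cell cannot be told apart.

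The 52 members that did not pass had a mean of at most 0.308 CPM. KCNK16 and KCNK18, both two-pore-domain channels, had no count in any library, and 18 members had at most 20 counts over all 10 libraries. The deep libraries alone allowed 31 of the 52 to be fitted, and 4 of these rose and 2 fell. Of the 43 members tested in all libraries, 16 rose and 9 fell in that fit. Together 31 of 74 members were called, 41.9%, against 57% of all genes (28.9% higher, 28.1% lower).

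**Figure D1:**
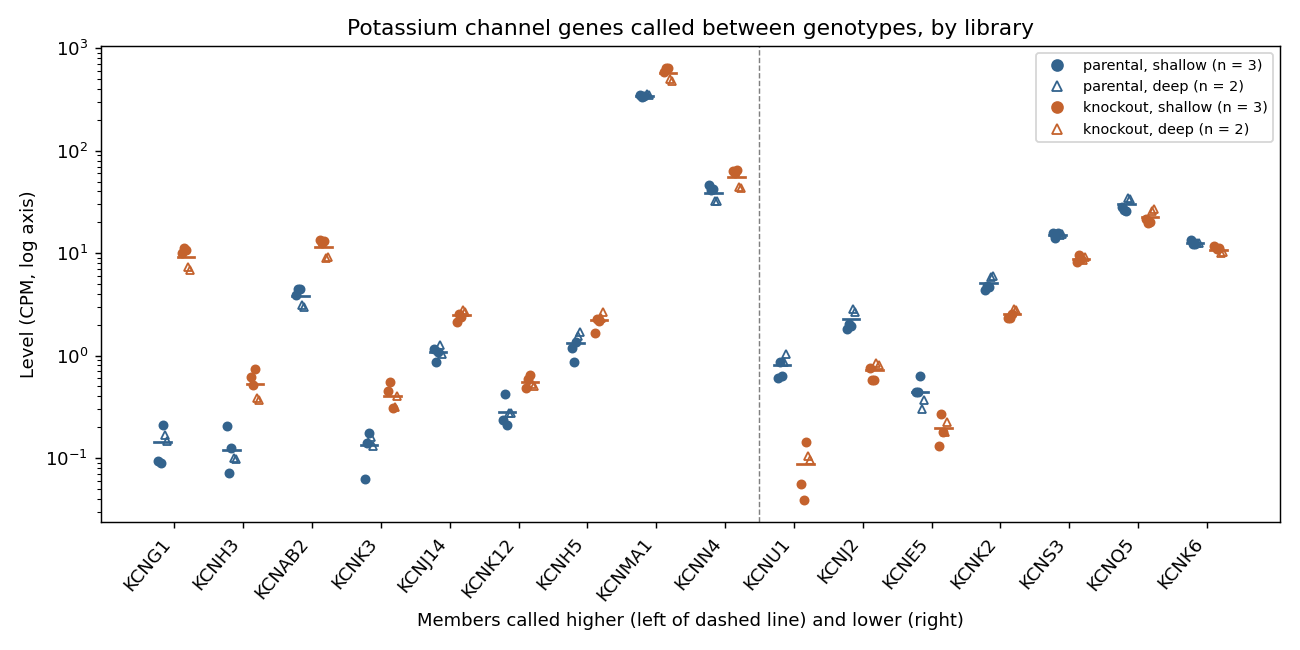
Level of each of the 16 called channel genes in each of the 10 libraries, in CPM on a log axis, with colour for genotype, circles for shallow and triangles for deep libraries, and a bar at each mean. KCNG1 lies between 0.0883 and 0.212 CPM in parental and between 6.92 and 11.3 CPM in knockout libraries, and KCNMA1 is the most abundant gene in both.

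Per kilobase of its longest coding transcript, KCNMA1 stood first in parental cells at 28.5 CPM per kb (27.4 to 29.4), followed by KCNN4 at 17.2 (14.2 to 20.6) and KCNIP3 at 9.81 (7.74 to 11.3). KCNS3 at 6.33 CPM per kb, KCNQ5 at 4.46 and KCNK6 at 2.21 came next, and neighbours in this order did not overlap down to KCNK6. KCNK2 at 1.52 and KCNJ8 at 1.44 CPM per kb overlapped. In knockout cells the same 3 genes led, KCNMA1 at 47.4, KCNN4 at 24.4 and KCNIP3 at 12.4 CPM per kb. The level summed over all 95 members was 78.6 ± 3.57 CPM per kb (SD, n = 5) in parental and 108.3 ± 14.0 in knockout. KCNMA1 held 34.5 to 38.9% of the sum in parental and 42.3 to 45.1% in knockout libraries. Its mean share was 57.9% and 63.6% when the median coding transcript length was used, a choice made after seeing the data. Shares and order therefore rest on which transcript is made. In parental cells KCNK2 held 37.7% and KCNK6 55.1% of the level of their class with the longest transcript. With the median length they held 58.4% and 35.8%.

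**Figure D2:**
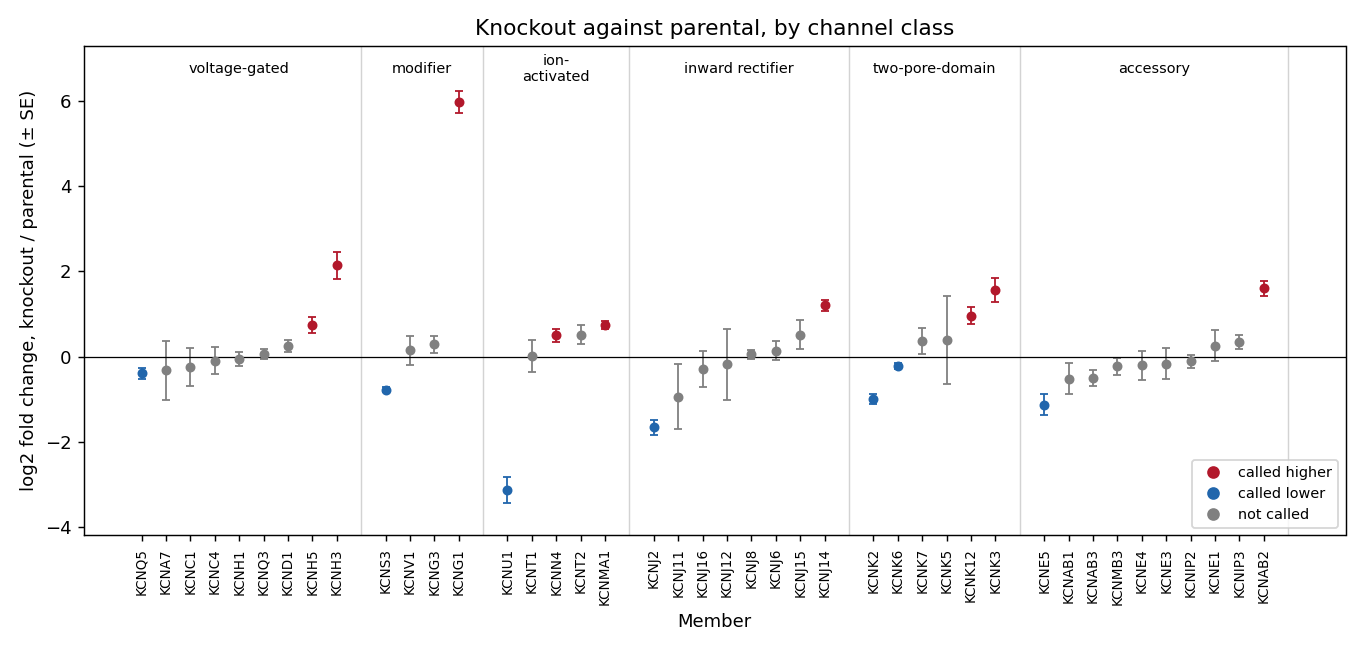
Knockout against parental log2 fold change of 42 of the 43 tested members, by channel class, with bars of 1 standard error and colour for the call. KCNG1 (5.98) and KCNU1 (-3.14) lie farthest from 0, and every class holds at least 1 member that rose and 1 that fell.

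Voltage-gated pore-forming subunits open on depolarization. Of 30 such genes 10 were tested, of which 2 rose, 1 fell and 7 did not pass, with a median log2 fold change of 0.00 (-9e-04). The most abundant was KCNQ5 (chr6:72621792-73198851 in hg38), a subunit of slow, non-inactivating currents that hold cells near rest. KCNQ5 stood at 28.5, 26.4, 25.9, 34.5 and 33.9 CPM in parental replicates 1 to 5 and at 21.3, 19.6, 19.9, 26.0 and 26.9 CPM in knockout replicates 1 to 5. All knockout libraries were lower than the parental libraries of their own depth, while the deep knockout libraries reached the shallow parental ones. The mean went from 29.9 ± 4.10 to 22.7 ± 3.45 CPM, a log2 fold change of -0.39 (SE 0.12). The median log2 fold change of chromosome 6 genes was -0.32, and with each gene's chromosome median subtracted the value for KCNQ5 was -0.07 and the call was lost.

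The KCNH genes encode the EAG family. KCNH5, which encodes the EAG2 channel, stood at 1.18, 0.866, 1.34, 1.55 and 1.71 CPM in parental and at 1.68, 2.29, 2.19, 2.35 and 2.67 CPM in knockout replicates 1 to 5. It rose by 0.74 (SE 0.19) on the log2 scale, and the lowest knockout library lay just under the highest parental one. KCNH3, an ELK-type channel best known from brain, stood at 0.205, 0.0707, 0.124, 0.100 and 0.0973 CPM in parental and at 0.614, 0.519, 0.737, 0.388 and 0.369 CPM in knockout. The groups did not overlap, and the fold was 4.42 on 93 parental and 358 knockout counts. KCNH3 overlaps MCRS1 on the other strand, a gene with 96783 counts, and the sources used here do not give whether counting used strand. KCNH1, which encodes the related EAG1 channel, averaged 4.19 ± 0.805 and 4.00 ± 0.751 CPM, and KCNQ3 averaged 5.94 ± 0.523 and 6.21 ± 0.997 CPM, and neither passed.

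Modifier subunits form no channel by themselves. They join Kv2 subunits and change how the mixed channel gates. Of 10 modifier genes 4 were tested, and 1 rose, 1 fell and 2 did not pass. KCNG1 (chr20:51003656-51023129 in hg38) stood at 0.0945, 0.0883, 0.212, 0.169 and 0.148 CPM in parental and at 10.1, 11.3, 10.6, 7.35 and 6.92 CPM in knockout replicates 1 to 5. Every knockout library was above every parental library, on 134 counts in parental and 6569 in knockout. The mean rose from 0.142 ± 0.0520 to 9.26 ± 1.99 CPM, 63.1-fold (log2 5.98, SE 0.26), and the log2 fold change was 6.32 in shallow and 5.47 in deep libraries alone.

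KCNS3 (chr2:17877847-18361616 in hg38), another Kv2 modifier, moved the other way. It stood at 15.7, 13.9, 15.8, 15.2 and 15.4 CPM in parental and at 8.23, 9.52, 8.71, 8.64 and 9.15 CPM in knockout. Knockout and parental libraries did not overlap, and the knockout level was 58.4% of the parental one (log2 -0.78, SE 0.067). Per kilobase, the 10 modifier genes summed to 6.84 ± 0.366 CPM per kb in parental and 8.35 ± 0.935 in knockout. KCNS3 held 91.8 to 93.3% of that sum in parental libraries and 40.3 to 51.9% in knockout libraries, and KCNG1 held 0.601 to 1.36% and 42.5 to 53.95%. With the median transcript length the mean knockout shares were 27.8% for KCNS3 and 68.3% for KCNG1, so which of them is the more abundant modifier in knockout cells rests on the length used.

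**Figure D3:**
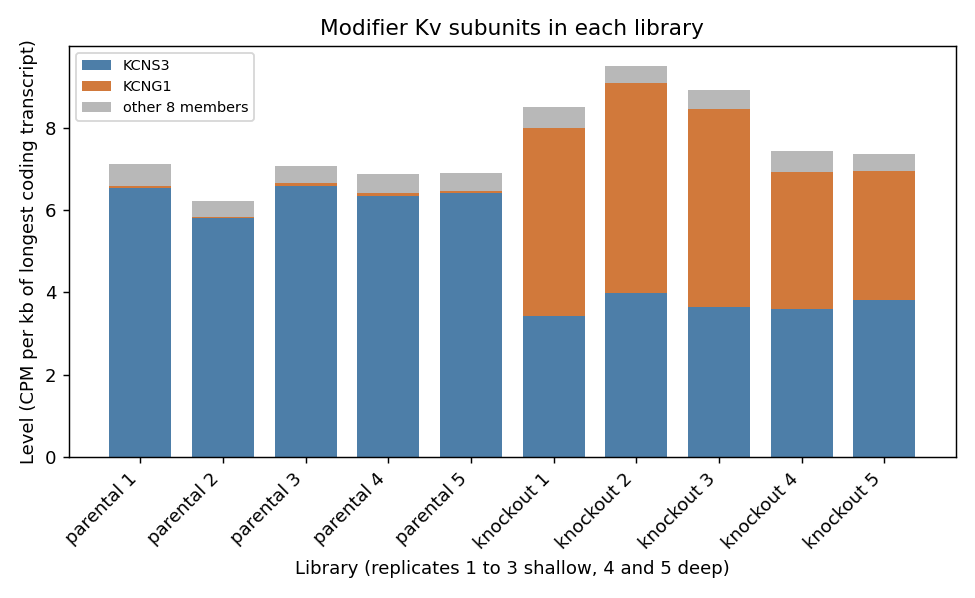
Level of the modifier subunits in each library, in CPM per kb of the longest coding transcript. KCNS3 makes up nearly the whole parental column, and KCNG1 and KCNS3 together make up nearly the whole knockout column.

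The Kv2 gene KCNB2 had 3 counts in parental and none in knockout libraries.

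Of 8 channels gated by calcium, sodium or pH, 5 were tested, and 2 rose, 1 fell and 2 did not pass. KCNMA1 (chr10:76869601-77638369 in hg38) encodes the pore of the large-conductance BK channel, which opens with voltage and intracellular calcium. It stood at 348, 331, 339, 354 and 347 CPM in parental and at 590, 640, 648, 501 and 482 CPM in knockout. No parental library overlapped the knockout range, and the mean went from 343.9 ± 8.87 to 572 ± 77.2 CPM, 1.66-fold (log2 0.73, SE 0.090). The parental libraries stayed within a narrow band at both depths, and the deep knockout libraries were the lowest of the knockout group. The log2 fold change was 0.88 in shallow and 0.47 in deep libraries, and the genotype by depth interaction was -0.40 (edgeR quasi-likelihood test, adjusted p = 0.0298). KCNMA1 was the only 1 of 43 members with a called interaction, against 0.601% of all genes. It rests on depth classes that also differ in the marker levels given further on, and whether these bear on it was not tested.

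KCNN4 (chr19:43766533-43781261 in hg38) encodes the intermediate-conductance calcium-activated channel of epithelia and lymphocytes. It stood at 46.1, 40.9, 41.9, 31.9 and 32.5 CPM in parental and at 62.8, 60.0, 64.2, 44.2 and 42.8 CPM in knockout. Within each depth the knockout libraries were higher, and over all 10 libraries the deep knockout libraries fell among the shallow parental ones. The fold was 1.42 (log2 0.50, SE 0.15). The call was lost with the chromosome 19 median of 0.17 subtracted (0.33).

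KCNU1 encodes a pH-gated relative of BK known from sperm. It stood at 0.598, 0.866, 0.637, 0.857 and 1.05 CPM in parental and at 0.0558, 0.0385, 0.144, 0.105 and 0.0952 CPM in knockout replicates 1 to 5. The groups did not overlap, and the knockout level was 11.3% of the parental one (log2 -3.14, SE 0.31) on 780 and 81 counts. All parental libraries and no knockout library reached the filter's 0.163 CPM. KCNU1 was thus tested only because it is high in parental, and its difference is given as a description. The sodium-activated channel KCNT2 averaged 1.77 ± 0.328 and 2.53 ± 0.787 CPM and did not pass, but was called higher with replicate number as a block.

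Inward rectifiers pass K+ more readily into the cell than out of it and hold the resting potential. Of 16 such genes 8 were tested, and 1 rose, 1 fell and 6 did not pass. KCNJ2 (chr17:70168673-70180048 in hg38) encodes Kir2.1, a strong rectifier. It stood at 1.83, 2.03, 1.96, 2.86 and 2.68 CPM in parental and at 0.763, 0.577, 0.575, 0.849 and 0.809 CPM in knockout. Knockout and parental libraries did not overlap, and the knockout level was 31.6% of the parental one (log2 -1.66, SE 0.18). The median over chromosome 17 genes was -0.28, and KCNJ2 remained called at -1.38 with it subtracted.

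KCNJ14 (chr19:48455509-48466980 in hg38) encodes Kir2.4 of the same subfamily and rose. It stood at 1.17, 0.866, 1.08, 1.26 and 1.03 CPM in parental and at 2.12, 2.54, 2.39, 2.79 and 2.64 CPM in knockout. No parental library overlapped the knockout range, and the fold was 2.30. KCNJ14 had 3213 counts and overlaps GRWD1 on the same strand, which had 152843 and a log2 fold change of -0.12. The ATP-sensitive channel gene KCNJ8, the most abundant of the class, averaged 3.43 ± 0.301 and 3.56 ± 0.341 CPM and did not pass. KCNJ13, which encodes the Kir7.1 channel of native retinal pigment epithelium, had 19 counts in parental and 20 in knockout. The class summed to 2.52 ± 0.158 CPM per kb in parental and 2.54 ± 0.142 in knockout, while the share of KCNJ2 went from 13.1 to 20.7% in parental libraries down to 3.90 to 6.33%, and that of KCNJ14 from 9.43 to 12.1% up to 21.8 to 27.9%.

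The promoter windows of KCNJ2 and KCNJ14 are shown because these members of 1 subfamily moved in opposite directions. Each runs from 250 bases before to 50 bases after the RefSeq start in GRCh38.p14 on the plus strand, chr17:70169282-70169581 and chr19:48455324-48455623. They differ in base makeup. The KCNJ2 window holds 39 CG dinucleotides, and 8.71% of 35116 RefSeq promoters hold as many. The KCNJ14 window holds 7, and 63.2% hold as many. TATAAA, read on both strands, occurs in the KCNJ14 window and not in that of KCNJ2, and in 11.5% of all promoters. Both hold GGGCGG on either strand, as 44.95% of all promoters do.
KCNJ2: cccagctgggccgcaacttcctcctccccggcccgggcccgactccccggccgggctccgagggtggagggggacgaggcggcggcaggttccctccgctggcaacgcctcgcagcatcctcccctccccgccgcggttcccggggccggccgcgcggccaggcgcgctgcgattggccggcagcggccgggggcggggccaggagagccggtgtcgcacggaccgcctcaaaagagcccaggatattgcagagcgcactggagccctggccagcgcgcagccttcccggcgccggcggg
KCNJ14: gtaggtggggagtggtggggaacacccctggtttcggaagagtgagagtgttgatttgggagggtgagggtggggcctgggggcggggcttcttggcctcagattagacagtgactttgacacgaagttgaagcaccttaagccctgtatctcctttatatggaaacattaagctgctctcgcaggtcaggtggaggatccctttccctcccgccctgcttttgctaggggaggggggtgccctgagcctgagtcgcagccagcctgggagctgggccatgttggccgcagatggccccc

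Two-pore-domain channels carry background K+ current that is open at rest. Of 15 such genes 6 were tested, and 2 rose, 2 fell and 2 did not pass. KCNK2 (chr1:215005775-215237093 in hg38) encodes TREK-1, which opens with membrane stretch. It stood at 4.39, 4.74, 4.72, 5.87 and 5.95 CPM in parental and at 2.33, 2.33, 2.53, 2.83 and 2.81 CPM in knockout. The groups did not overlap, and the knockout level was 50.02% of the parental one (SE of the log2 fold change 0.12). KCNK6 (chr19:38319844-38332076 in hg38), which encodes the TWIK-2 channel, stood at 13.5, 12.4, 12.3, 12.6 and 12.5 CPM in parental and at 11.8, 10.9, 11.2, 10.1 and 10.3 CPM in knockout. The groups did not overlap, and the log2 fold change was -0.23 (SE 0.066), or -0.40 with the chromosome 19 median subtracted.

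KCNK12 (chr2:47516581-47570939 in hg38) encodes a member of the halothane-inhibited THIK pair. It stood at 0.236, 0.424, 0.212, 0.275 and 0.273 CPM in parental and at 0.484, 0.596, 0.647, 0.528 and 0.503 CPM in knockout, without overlap (log2 0.96, SE 0.20). KCNK12 had 684 counts and overlaps a protein-coding gene on the other strand that had 185350. KCNK3, which encodes the acid-sensitive TASK-1 channel and is named here after its values were seen, averaged 0.134 ± 0.0434 and 0.405 ± 0.103 CPM, also without overlap. The class summed to 4.02 ± 0.169 CPM per kb in parental and 3.07 ± 0.0900 in knockout, with KCNK2 and KCNK6 as its main members.

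The promoter windows of KCNK2 and KCNK6, on the plus strand at chr1:215005292-215005591 and chr19:38319595-38319894, are shown as windows of lower members that hold a 6-base sequence. Capitals mark GGAATG or its complement CATTCC, the core letters bound by TEAD factors, a motif chosen with earlier results of these data known. The KCNK2 window, 1 of 2 listed for the gene, holds 1 match and the KCNK6 window 2. A window was listed for 71 of the 95 members. At the first listed start the motif occurred in 4 of 6 lower members (KCNE5, KCNK2, KCNK6 and KCNQ5), 0 of 6 higher members and 0 of 20 members not called. Over all genes the shares at that start hardly differed by call, 11.1% of lower, 11.5% of higher and 11.2% of uncalled genes. With every listed start counted, the motif occurred in 4 lower, 0 higher and 1 uncalled member. Among members not tested it was in 6 of 39, and among all promoters in 14.0%. A match is a string of letters and not a bound site. Because the motif was chosen with these data known, these counts describe the windows and support nothing further.
KCNK2: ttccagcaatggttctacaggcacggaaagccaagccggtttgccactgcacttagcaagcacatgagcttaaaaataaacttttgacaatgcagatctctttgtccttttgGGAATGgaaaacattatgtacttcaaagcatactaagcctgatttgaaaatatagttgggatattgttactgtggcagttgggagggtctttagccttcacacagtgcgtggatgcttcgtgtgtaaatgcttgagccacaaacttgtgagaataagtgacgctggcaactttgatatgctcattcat
KCNK6: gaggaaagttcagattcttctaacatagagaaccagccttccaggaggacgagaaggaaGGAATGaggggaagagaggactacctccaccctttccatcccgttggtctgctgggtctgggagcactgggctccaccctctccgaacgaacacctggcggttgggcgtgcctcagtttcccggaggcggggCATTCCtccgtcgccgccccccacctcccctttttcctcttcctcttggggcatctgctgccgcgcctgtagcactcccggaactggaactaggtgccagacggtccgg

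Accessory subunits bind the pore-forming ones. Of 16 such genes 10 were tested, and 1 rose, 1 fell and 8 did not pass. KCNAB2 (chr1:5991466-6101193 in hg38) encodes the cytoplasmic beta subunit Kv-beta-2, which binds Kv1 channels. It stood at 3.87, 4.45, 4.46, 3.10 and 3.00 CPM in parental and at 13.3, 12.5, 13.2, 9.03 and 9.15 CPM in knockout. Knockout and parental libraries did not overlap, and the fold was 3.04 (log2 1.60, SE 0.17). Its share of the class level per kb went from 6.33 to 7.38% in parental up to 15.4 to 16.4% in knockout libraries. With the median transcript length the mean shares were 16.7% in parental and 34.85% in knockout, so the share rests on the length used. The Kv1 genes it could pair with were nearly silent, since KCNA7 was the only KCNA gene to pass the filter, at 0.284 and 0.230 CPM.

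KCNIP3, a calcium-binding partner of Kv4 channels also known as the DREAM repressor, stood at 33.1, 31.7, 32.4, 22.8 and 24.2 CPM in parental and at 43.7, 38.5, 42.6, 29.2 and 28.8 CPM in knockout. It did not pass (log2 0.34, SE 0.16), although within each depth every knockout library was higher, and it was called higher with the replicate block. KCNE5, a single-span subunit named here after its values were seen, averaged 0.437 ± 0.126 and 0.197 ± 0.0523 CPM and fell (log2 -1.13, SE 0.25). It had 487 counts and overlaps ACSL4 on the same strand, which had 490648 and a log2 fold change of -0.26. KCNAB3 averaged 1.57 ± 0.205 and 1.12 ± 0.322 CPM and did not pass, but was called lower with the block.

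Nearest the threshold on its inner side were KCNK6 (edgeR adjusted p 0.0214), KCNN4 (0.0252) and KCNQ5 (0.0306), and on its outer side KCNAB3 (0.0602), KCNT2 (0.0887) and KCNIP3 (0.1225). KCNK6, KCNN4 and KCNQ5 lost the call under some settings, and KCNAB3, KCNT2 and KCNIP3 gained it with the replicate block. Members farther from the threshold also gained calls in some fits, such as KCNQ3 in the deep libraries alone (edgeR adjusted p = 0.0195). KCNN4 was not called without parental replicate 4 or 5 or knockout replicate 1, 2 or 3 (adjusted p 0.0587 to 0.0707), and KCNQ5 was not called without any 1 of the same libraries (0.0605 to 0.0739). With the replicate block 11 members were higher and 9 lower, 46.5% of those tested against 61.2% of all genes (31.1% higher, 30.1% lower). All 16 called members had the same sign at both depths when these were fitted apart.

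**Figure D4:**
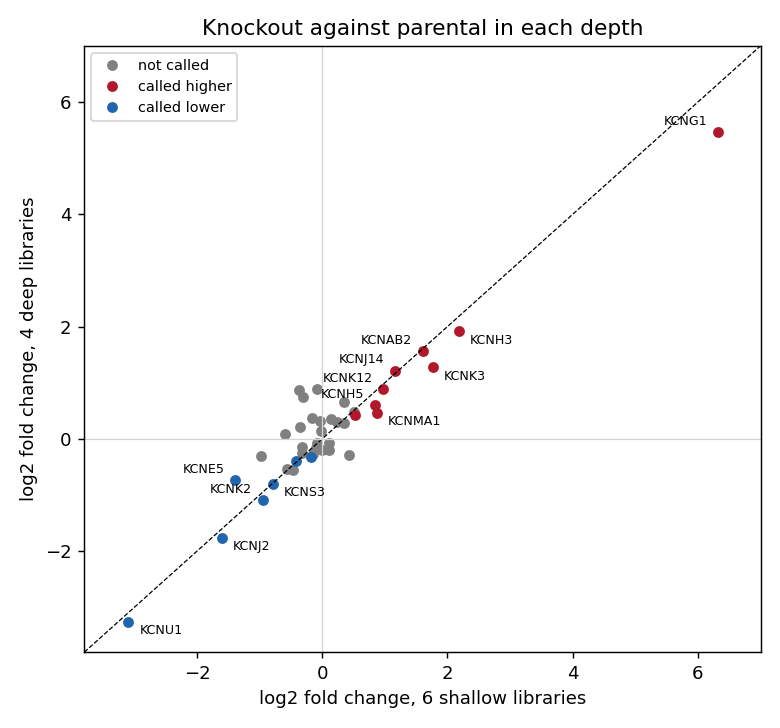
Knockout against parental log2 fold change of each member in the 6 shallow libraries (x axis) and in the 4 deep libraries (y axis), with the line of equal values. Of 41 members fitted at both depths 30 have the same sign, among them all 16 called members, and KCNMA1 lies below the line at 0.88 and 0.47.

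Deep and shallow libraries were compared with genotype as a term, a contrast that played no part in choosing the members. By edgeR's test 11 members were higher and 11 lower in deep libraries, 51.2% of 43 against 69.3% of all genes (34.5% higher, 34.9% lower). The filter asks for 0.163 CPM in at least 5 libraries, and only 4 libraries are deep, so a scarce gene could pass through the shallow libraries alone but not through the deep ones alone. The 4 members at least 4-fold lower in deep libraries passed in that way, with no deep library at 0.163 CPM, so their differences are given as values with no test, and the count of 11 lower members includes them. KCNK5, an acid-sensitive two-pore-domain channel, averaged 0.321 CPM in shallow and 0.0296 in deep libraries (log2 -3.42, SE 0.39). KCNJ12, a strong inward rectifier of heart and muscle, averaged 0.274 and 0.0471 CPM (log2 -2.56). Its near-identical copy KCNJ18 can exchange counts with it. KCNJ11, the pore of ATP-sensitive channels in muscle and pancreatic beta cells, averaged 0.365 and 0.0694 CPM (log2 -2.36). KCNA7, a Kv1 gene known from heart and skeletal muscle, averaged 0.373 and 0.0829 CPM (log2 -2.16).

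Markers of other tissues moved with depth. The 10 skeletal muscle markers in the table summed to 276.3 to 624.9 CPM in shallow libraries and to 17.2 to 32.8 in deep ones. The 5 erythroid markers summed to 22.1 to 181.7 CPM and 0.170 to 0.204, the 5 liver markers to 25.9 to 70.7 and 0.609 to 1.44, and the 4 cardiac markers to 0.583 to 1.28 and 0.204 to 0.336. The sum of the 6 neuron markers went the other way, from 21.2 to 26.8 CPM in shallow up to 28.6 to 36.6 in deep libraries. Most of that sum was SYT1, with means of 16.7 and 23.35 CPM, and SNAP25, with 7.41 and 9.27 CPM. STMN2 was also higher on average in deep libraries, while ELAVL3, RBFOX3 and GRIN1 were lower. None of these markers was at 0 in every library, and their part in the depth differences of the channel genes was not tested. Within the shallow and within the deep libraries taken apart, the genotypes did not overlap, in 1 direction, for 18 of 43 members (41.9%), the 16 called ones among them, against 53.9% of all genes.

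**Figure D5:**
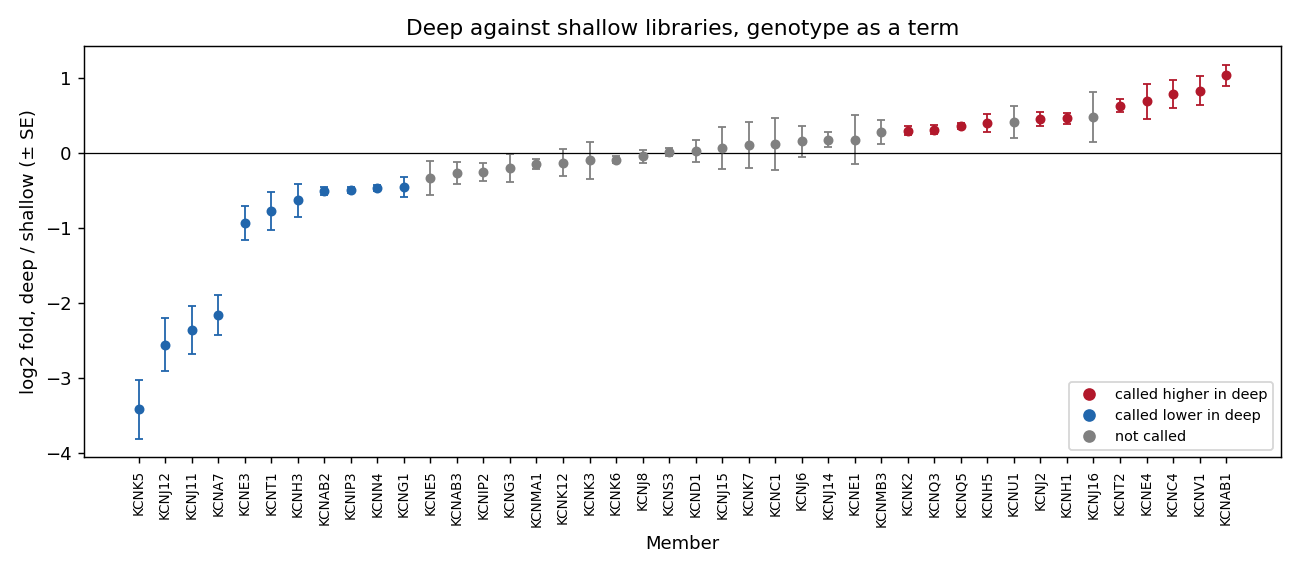
Deep against shallow log2 difference of 42 of the 43 tested members, with genotype as a term and bars of 1 standard error. KCNK5, KCNJ12, KCNJ11 and KCNA7 form the low end, from -3.42 to -2.16, and the other members lie between -0.93 and 1.04.

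Genes that act beside K+ channels were read from lists of pumps, cotransporters, partners and other cation channels. Over all genes tested 19.7% were called higher and 16.9% lower, and the counts in these lists describe their genes only. Of 15 Na,K-ATPase genes, which encode the pump that builds the K+ gradient, 9 were tested and 0 passed edgeR's test, with 1 at an unadjusted p under 0.05 and 0 called by DESeq2. Of 9 cation-chloride cotransporters 6 were tested, and 1 rose and 1 fell. SLC12A4, the K-Cl cotransporter KCC1, fell from 179.8 ± 17.7 to 121.0 ± 14.7 CPM (log2 -0.57, edgeR adjusted p = 0.00117).

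Of 22 channel partners and regulators 15 were tested, and 3 rose, 4 fell and 8 did not pass, where 36.6% of all genes were called. With the replicate block 4 rose and 8 fell, where 61.2% of all genes were called. NEDD4L, a ubiquitin ligase that removes ion channels from the membrane, fell from 235.8 ± 28.6 to 107.9 ± 15.0 CPM (log2 -1.13, edgeR adjusted p = 2.91e-05). ABCC9, the sulfonylurea receptor that pairs with the KCNJ8 channel, fell from 16.9 ± 3.94 to 8.37 ± 2.67 CPM (log2 -1.01, edgeR adjusted p = 0.00612), while KCNJ8 itself was not called. The calmodulin gene CALM2 fell from 568.5 ± 68.5 to 427.5 ± 37.7 CPM. STX1A, a syntaxin that binds Kv2 channels, rose from 33.95 ± 6.08 to 56.2 ± 9.60 CPM (log2 0.73, edgeR adjusted p = 0.00336). VAPA, a membrane protein that Kv2 channels tether to, rose from 105.7 ± 9.92 to 131.3 ± 6.12 CPM. VAPB of the same list, named here after its values were seen, went the other way. It fell from 68.7 ± 7.69 to 54.75 ± 6.47 CPM with overlapping ranges (log2 -0.33, edgeR adjusted p = 0.0290). The scaffold gene DLG1 rose from 242.4 ± 47.4 to 349.9 ± 81.0 CPM. The call of DLG1 was lost with the chromosome median subtracted (adjusted p = 0.0528 by edgeR).

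Of 41 sodium, calcium and cyclic-nucleotide-gated channel genes 21 were tested. Of these 4 rose, 4 fell and 13 did not pass, where 36.6% of all genes were called. SCN9A, the pore of the sodium channel Nav1.7, fell from 62.8 ± 14.9 to 8.35 ± 2.44 CPM (7.48-fold, edgeR adjusted p = 6.01e-06). SCN2A, the pore of Nav1.2, rose from 0.309 ± 0.0920 to 2.43 ± 0.591 CPM (7.73-fold, edgeR adjusted p = 8.07e-06). CACNB4, a calcium channel beta subunit, rose from 0.652 ± 0.107 to 2.22 ± 0.783 CPM. SCN8A fell from 26.0 ± 3.32 to 17.6 ± 3.32 CPM.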

How the data were processed

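Poly(A) RNA of 5 parental and 5 CCAR1 knockout libraries was measured. The deposited table gives estimated counts per gene, made by the authors with kallisto 0.48.0 and hg38 per the submitters' processing notes; the sources used here do not give the annotation release or any use of strand. Counts were rounded. Genes were filtered by edgeR's filterByExpr (18979 kept), scaled by TMM and fitted by edgeR 4.0.16 (R 4.3.3, quasi-likelihood, robust) with genotype as the term and Benjamini-Hochberg adjustment at 0.05. The model was tested on simulated data. The members, lists and motif were chosen with earlier results of these data known. Called members of at least 0.5 CPM, the most abundant member of each class, KCNB2 and KCNJ13 were named, and from the other lists up to 3 genes each way of at least 2 CPM; some genes this would name are not reported here. Positions and transcript lengths are from GENCODE 29, and promoters from RefSeq (GRCh38.p14). Same-numbered libraries deviated together (correlations 0.605 to 0.916), but so did libraries of other numbers at the same depth (0.642 to 0.912), while those of different depth did not (-0.819 to -0.741).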

Additional observations from a re-analysis of the deposited data

Results flagged for a closer look

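KCNK6 in parental replicate 1 stood at 13.51 CPM, apart from the other 4 parental libraries at 12.34 to 12.62 CPM. The gap was 0.757 of the group's range, over the critical value of 0.71 for 5 libraries. Such gaps were looked for in 38 groups, and chance gives about 1 in 20.

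The knockout difference of KCNMA1 differed between depths, with a deep minus shallow log2 value of -0.3958 (edgeR quasi-likelihood interaction, adjusted p = 0.0298).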

How the results depend on the processing

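The counts of 9 higher and 7 lower members stayed within 1.5 times under every alternative run except the deep libraries alone, where 20 were higher and 11 lower among 74 members tested. The 43 members tested in all libraries gave 16 and 9 of these calls, and the 31 fitted only there gave 4 and 2. Leaving out 1 library gave 8 to 9 higher and 6 to 7 lower. With the replicate block, 11 were higher and 9 lower. The fewest were 6 and 5, at a minimum of 1 CPM in 5 libraries, which tests fewer members. Of the values for named members under the alternatives, 314 kept the call or its absence and 17 lost the call (KCNQ5, KCNN4 and KCNK6). Another 5 gained it (4 of these for KCNIP3), and 0 were called in the opposite direction. Values not called could change sign. KCNJ8 was 0.05 in the main fit and -0.08 in the deep libraries alone. KCNK6 was not called with library size as the only scaling (adjusted p = 0.0523 by edgeR), without the filter (0.114) or in shallow libraries alone (0.0575). KCNQ5 was also lost with library size only (0.0860) and without the filter (0.0656). The causes were not tested. Members under 0.5 CPM rest on few counts in shallow libraries.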
